A study of Mus musculus with 54 samples.

Results

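The genes described here build, cap and hold together the sarcomere, the contractile unit of striated muscle. They comprise 44 listed mouse genes of the thin filament, titin, the M-line, the Z-disc and the sarcomere chaperones, found by their NCBI gene number among the 19653 genes that at least 1 of the 27 deposited tables lists. Myosin chains and troponins are not among them. In all, 42 members were listed in every table. Myoz3 was absent from both tables that follow the Del9599 line over time, and Mybpc2 from the table of Q133H from 0 to 24 h.

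RNA came from H2K mouse myogenic progenitors, which are muscle precursor cells that an interferon-inducible viral antigen keeps dividing until it is switched off and the cells are allowed to fuse. Of 6 lines, 1 was Wild type, 1 was Emerin null (derived from mice without the nuclear membrane protein emerin), and 4 were Emerin null cells transduced with lentivirus carrying emerin: wildtype emerin (labelled EMD and called +EMD here) or the mutants S54F, Del9599 and Q133H, which cause Emery-Dreifuss muscular dystrophy. Each line was sampled at 0, 24 and 48 h after the change to differentiation medium, with 3 labelled replicates in each of 18 groups and 54 samples in all. The labels give 3 technical replicates for each of 2 biological replicates, and do not say which labelled replicate is which. All cells had been grown with γ-interferon on gelatin. Wild type and Emerin null cells were seeded at 232000 cells per well and the mutant lines at 297000, and the medium of the mutant lines held puromycin during growth and differentiation. All 4 transduced lines, +EMD included, had been selected with puromycin, at a dose that was highest for S54F and Del9599, lower for Q133H and lowest for +EMD. A seeding density for +EMD is not given in the labels. Each genotype is 1 line, so genotype, line, transduction, puromycin and seeding cannot be told apart in a comparison of a transduced line with Wild type.

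In a sarcomere, thin filaments of actin, tropomyosin and nebulin run from the Z-disc towards the middle, where they overlap thick filaments of myosin. Titin spans from the Z-disc to the M-line, and myomesins link thick filaments at the M-line. α-Actinin crosslinks the thin filaments of neighbouring sarcomeres at the Z-disc, around which filamin C, myotilin, myozenins, LDB3 and telethonin gather. Tropomodulin and leiomodins cap or extend the pointed ends of thin filaments, while chaperones such as UNC45B fold myosin and KLHL40 and KLHL41 keep thin filament proteins stable. Desmin filaments tie the Z-discs of neighbouring myofibrils together. These genes are switched on when myoblasts leave the cell cycle and fuse, under MyoD-family factors, MEF2 and serum response factor.

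Each table gives 2 values per gene, 1 for each group, in normalized counts. These values are pooled over the replicates, so there is no replicate check on the differences below: the spread between replicates is not known from them. The tables also hold the authors' own test results, which were not used here, and no statement is made on whether a difference exceeds the replicate error. A difference is given as log2((value + 1)/(value + 1)) within 1 table. A gene was called higher or lower, and is said to have risen or fallen over time, when this log2 value was at least 1 in size (2-fold) and the higher of both values was at least 10. Levels are normalized counts per 1000000 of the group's column sum (CPM), averaged over the tables that hold the group. A change or fold from 0 to 48 h is the sum of both steps' log2 changes, each within its own table, and can differ from the ratio of the averaged CPM values. Calls and log2 differences rest on 1 table, while CPM values and percentages of the Wild type level are averaged over tables. The ratio of 2 printed CPM values can therefore also differ from the log2 difference or call beside it. Tables listed between 17215 and 17876 genes, and the normalized counts of a column summed to between 16.7 and 21.1 times 1000000. Between 37 and 43 of the members reached the minimum of 10 in each table.

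The targeted gene was examined first. Emd, which encodes emerin, lay between 987 and 1962 normalized counts in Wild type, and at most at 3.52 in every other line, +EMD included, in the tables against Wild type. The transduced emerin was thus not visible in the counts of Emd, and its level was not measured here. Of 7 myogenic markers, 5 or 6 stood at 1 CPM or more in every group, and their summed level ran from 1134 CPM in Q133H at 24 h to 6465 in +EMD at 48 h. Cardiac markers summed to between 0.168 and 5.50 CPM (Myl7 was not listed), endothelial and blood markers to between 1.37 and 7.67. Fibroblast markers summed to between 18.8 and 264 and smooth muscle and pericyte markers to between 119 and 357.

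Because most members rose in Wild type (35 of 44 in each step), the stretches before their transcription starts were searched for the letters that muscle transcription factors are known to bind. RefSeq (GRCm38.p6) held 39 promoters for 34 of the 44 members, and the 250 bases before each start were read on both strands. The 4 printed here, 5′ to 3′ with E-boxes and CArG boxes in capitals, belong to the most abundant sarcomeric actin, its cardiac relative, the M-line gene Myom1, and Ankrd2, which differed most between the lines. Acta1 is read from chr8:123894776-123895025 (minus strand), Actc1 from chr2:114052876-114053125 (minus strand), Myom1 from chr17:71019307-71019556 (plus strand), and Ankrd2 from chr19:42035777-42036026 (plus strand). The starts of Myom1 and Ankrd2 used here lie inside the span of longer transcripts of the same gene.
Acta1: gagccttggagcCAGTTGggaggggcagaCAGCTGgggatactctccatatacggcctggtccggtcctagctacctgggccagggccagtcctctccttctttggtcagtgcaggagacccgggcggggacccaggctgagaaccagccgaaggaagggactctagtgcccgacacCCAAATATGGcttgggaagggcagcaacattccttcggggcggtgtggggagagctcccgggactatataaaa
Actc1: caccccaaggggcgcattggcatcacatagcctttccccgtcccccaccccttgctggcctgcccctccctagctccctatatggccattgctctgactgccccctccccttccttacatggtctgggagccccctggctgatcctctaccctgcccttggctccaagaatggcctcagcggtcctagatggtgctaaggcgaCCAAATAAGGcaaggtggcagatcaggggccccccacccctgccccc
Myom1: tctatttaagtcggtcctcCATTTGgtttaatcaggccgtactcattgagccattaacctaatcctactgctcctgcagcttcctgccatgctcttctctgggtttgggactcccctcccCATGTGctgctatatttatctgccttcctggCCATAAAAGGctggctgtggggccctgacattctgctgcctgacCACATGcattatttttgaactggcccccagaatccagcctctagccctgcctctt
Ankrd2: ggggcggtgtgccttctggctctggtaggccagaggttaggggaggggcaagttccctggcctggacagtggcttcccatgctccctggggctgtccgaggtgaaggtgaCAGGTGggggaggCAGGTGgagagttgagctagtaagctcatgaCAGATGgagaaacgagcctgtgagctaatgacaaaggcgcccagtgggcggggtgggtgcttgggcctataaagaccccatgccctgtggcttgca

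The CArG box, the site of serum response factor, stood in Acta1 (CCAAATATGG, 73 to 64 bases before the start), Actc1 (CCAAATAAGG, 47 to 38 bases) and Myom1 (CCATAAAAGG, 99 to 90 bases). Over all members it occurred in 12.8% of 39 promoters, belonging to Acta1, Actc1, Ldb3 and Myom1, and in 1.47% of all 32851 promoters of the same length. Ankrd2 held 3 E-boxes, the nearest 96 to 91 bases before its start, and no CArG box in this window. The E-box CANNTG, the site of MyoD-family factors, occurred in 79.5% of member promoters and 66.2% of all. Its form CAGCTG, which CANNTG includes, occurred in 38.5% and 13.0%. A MEF2 site occurred in 17.9% of member promoters, those of Klhl41, Myom3, Myoz2, Synpo2l, Ttn and Xirp2, and in 2.92% of all. The TATA box letters TATAAA occurred in 12.8% and 12.4%. These are matches of letters, and no binding was measured.

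At 48 h the members took 5.26% of all normalized counts in Wild type, 5.41% in Emerin null, 5.30% in S54F, 4.57% in +EMD, 3.09% in Del9599 and 1.48% in Q133H. At 0 h the share lay between 0.532% in Del9599 and 1.01% in Emerin null. At 24 h it had reached 2.05% in Wild type and 2.27% in Emerin null, and stood at 0.614% in Del9599 and 0.564% in Q133H. In a bulk sample, fewer differentiated cells and less RNA per cell cannot be told apart. Among members and groups, levels ran from under 0.01 CPM (Myoz3) to 13382 (Acta1).

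**Figure D1:**
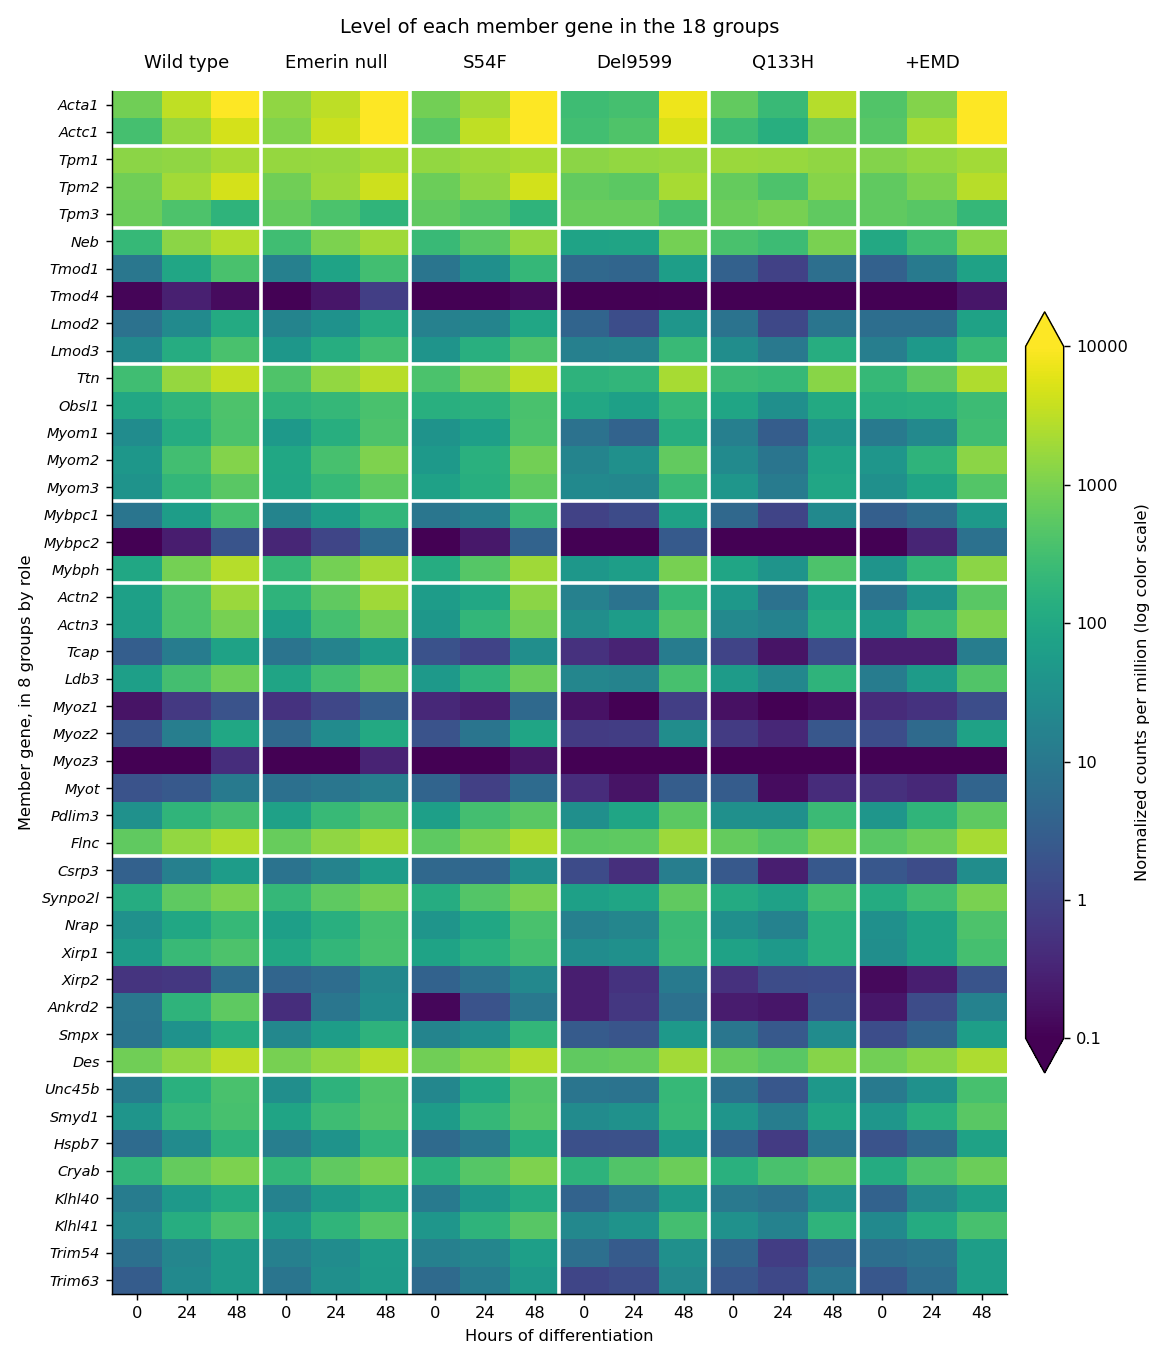
Level of each of the 44 members (rows, in 8 groups by role) in the 18 groups (columns, hours of differentiation within each line), as CPM on a log color scale. Most rows brighten from 0 to 48 h in each line, while Q133H stays darkest at 48 h, Tpm3 darkens, and Ankrd2 is brightest in Wild type.

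In GRCm38.p6, the genes that recur most below lie at chr8:123891758-123894775 (Acta1, gene 11459), chr2:76703980-76982557 (Ttn, gene 22138), chr13:12269426-12340732 (Actn2, gene 11472), chr19:42035917-42045111 (Ankrd2, gene 56642) and chr3:90072651-90100902 (Tpm3, gene 59069).

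Per kilobase of transcript at 48 h in Wild type, the 2 sarcomeric actins led, Acta1 (skeletal α-actin) at 9036 and Actc1 (cardiac α-actin, which embryonic and newly formed skeletal muscle also uses) at 3319 CPM. Tpm2 (β-tropomyosin) followed at 1954, Tpm1 at 1485, Mybph (a myosin-binding protein) at 1480, the small heat shock protein gene Cryab at 1065 and Des (desmin) at 1014. The giant genes were far lower on this scale, with Neb (nebulin) at 132.5 and Ttn (titin) at 74.1. At the other end, Tmod4 and Myoz3 stood at 0.115 and 0.133 per kilobase and Mybpc2, which encodes the fast myosin-binding protein C, at 0.558. Those 3, with Myoz1 (at most 5.06 CPM in any group), belong to mature fast fibres. Tmod4 and Myoz3 stayed under 1 CPM in every group, while Mybpc2 reached 7.17 CPM in +EMD at 48 h.

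**Figure D2:**
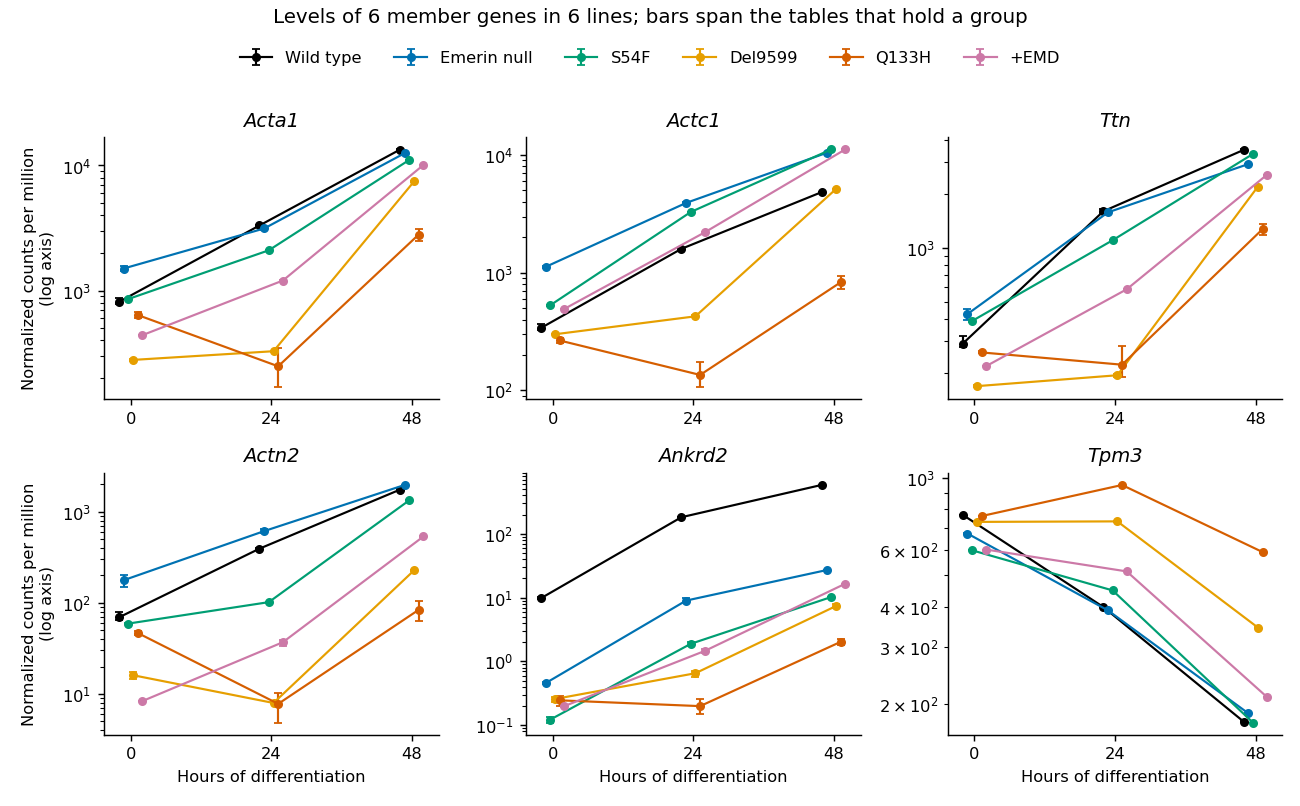
Levels of 6 members (CPM, log axes) at 0, 24 and 48 h in the 6 lines, with lines drawn between group values and bars from the lowest to the highest table that holds a group. Acta1, Actc1, Ttn and Actn2 in Q133H lie below their 0 h value at 24 h, Ankrd2 in every other line lies below Wild type at all times, and Tpm3 at 48 h lies below its 0 h value in every line.

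In Wild type cells, nearly all of the program rose. From 0 to 24 h, 35 of 44 members rose and 0 fell, with a median log2 change of 2.13, against 9.61% of all genes that rose and 7.93% that fell. From 24 to 48 h, 35 rose and 0 fell, with a median of 1.58, against 6.14% and 9.12% of all genes. Over all genes the median was 0.00 and -0.02. Summed over both steps the median log2 change was 3.75. At 0 h some members were already abundant, with Tpm1, Des, Tpm2 and Acta1 at 1374, 826, 818 and 813 CPM. Tpm1 also gives nonmuscle forms, which gene counts do not separate.

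The sarcomeric actins rose in both steps. Acta1 went from 813 CPM at 0 h to 3314 at 24 h and 13382 at 48 h, and Actc1 from 339 to 1595 and 4849. By the summed changes within tables, these were rises of 18.2-fold and 16.6-fold. Among the tropomyosins only Tpm2 rose, from 818 to 2056 and 4834 CPM. Tpm1, which gives both muscle and nonmuscle forms, stood at 1374, 1447 and 2142 CPM and did not pass the threshold in either step. Tpm3, the source of slow muscle and of cytoskeletal tropomyosins, stood at 768, 399 and 176, with log2 changes of -0.91 and -0.99, each just short of the threshold, and -1.90 over both. Its counts are uncertain, since it shares 522 bases at 99.43% identity with Tpm3-rs7.

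Of the 5 genes that set or cap thin filament length, 4 rose in each step and Tmod4, under 1 CPM, in neither. Neb went from 226 to 1360 and 2642 CPM, Tmod1, whose product caps the pointed end, from 9.79 to 89.0 and 371, and Lmod3, a leiomodin that nucleates thin filaments, from 23.5 to 126.5 and 369. Tmod1 shares 1287 bases with its neighbour Tstd2 in the annotation, so its counts are uncertain too. Titin and the M-line followed, with Ttn at 292, 1594 and 3509 and Myom2 (the fast-fibre M-protein) at 45.2, 306 and 1191 CPM. Obsl1, a cytoskeletal linker of the M-line, changed less, from 102 to 186 and 401. Mybpc1, the slow myosin-binding protein C, went from 8.75 to 60.4 and 336, and Mybph from 97.1 to 892 and 2735.

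At the Z-disc, 8 of 10 core members rose in the first step and 7 in the second. Actn2, the sarcomeric α-actinin, went from 69.3 to 393 and 1747 CPM and its fast-fibre relative Actn3 from 62.9 to 388 and 957. Myoz2, whose product links α-actinin to calcineurin, went from 2.01 to 13.5 and 93.2, and Tcap (telethonin, which ties titin at the Z-disc) from 3.09 to 12.6 and 74.3. Flnc, a filamin present before fusion, went from 589.5 to 1523 and 2599. Around the Z-disc the most extreme member was Ankrd2, a stretch-responsive ankyrin repeat gene, which stood at 9.77, 182 and 585 and rose 65.0-fold over both steps. Xirp2 (xin repeat protein) moved late, with 0.568, 0.655 and 6.04 CPM. All 8 chaperone and ubiquitin ligase genes rose in the first step, led by Unc45b at 12.8, 152 and 365 CPM. Trim63 (MuRF1, a muscle ubiquitin ligase) went from 2.82 to 23.7 and 52.6.

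**Figure D3:**
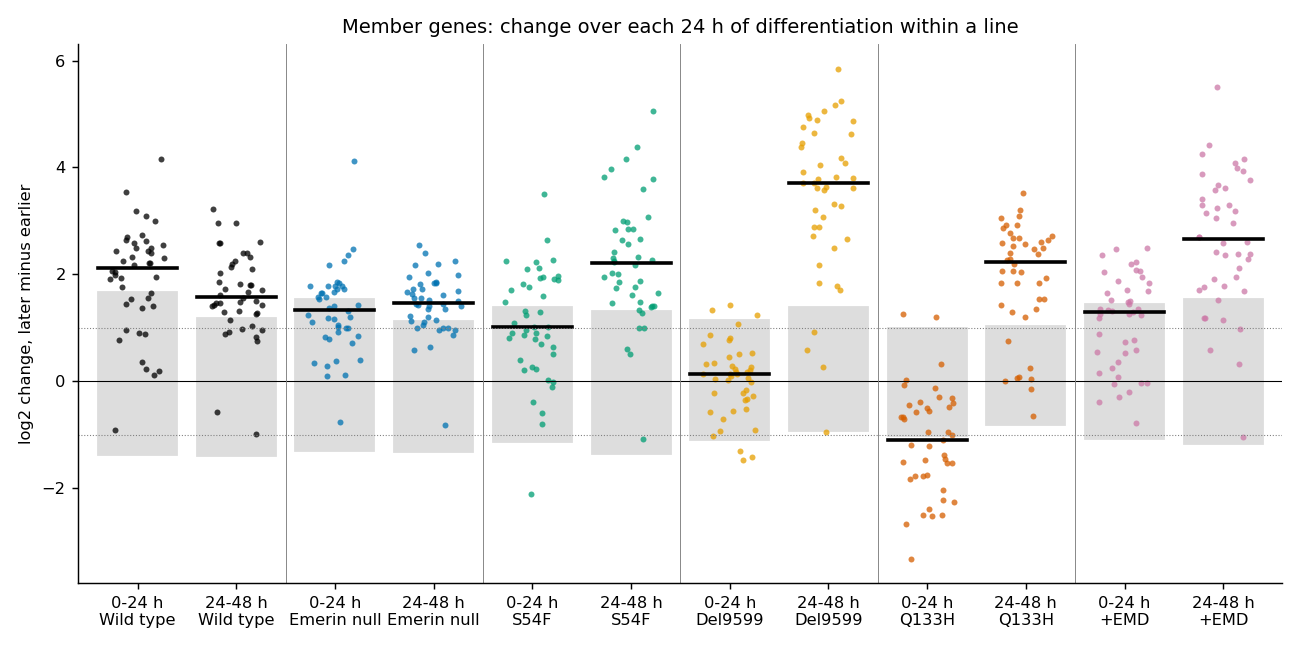
Log2 change of each member (points) from 0 to 24 h and from 24 to 48 h in each of the 6 lines, with the members' median as a black bar, the 5th to 95th percentile of all genes of the table as a grey box, and dotted lines at a log2 of 1 and -1. The median is 2.13 and then 1.58 in Wild type, 0.13 and then 3.71 in Del9599, and -1.09 and then 2.23 in Q133H.

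Emerin null cells began with more sarcomere RNA than Wild type and ended near it. At 0 h, 11 of 44 members were called higher and 1 lower, with a median log2 difference of 0.78, against 3.80% of all genes higher and 2.91% lower. The level lay above Wild type for 39 members. At 24 h, 4 were higher and 1 lower with a median of 0.17 (3.49% and 2.12% of all genes), and at 48 h again 4 and 1 with a median of 0.07 (3.58% and 2.14%). Smooth muscle and pericyte markers were also called higher at 0 h (4 of 7), with a summed level of 251 CPM against 206 in Wild type. They stayed so at 24 h (4 of 7) and 48 h (3 of 7), with median log2 differences of 1.24 and 0.98. Their part in the differences of the members was not tested.

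The members called higher at 0 h belonged to 6 of the 8 roles, with none among the tropomyosins or the thick filament binding proteins. They included Actc1, at 1120 CPM against 339 in Wild type (log2 1.58), and Myot (myotilin, an actin crosslinker of the Z-disc) at 6.99 against 1.92 (log2 1.43). Trim63 at 8.62 against 2.82 (log2 1.41) and Xirp2 at 4.29 against 0.568 (log2 2.16) were others. Acta1 stood at 1502 against 813 CPM with a log2 difference of 0.74, and Ttn at 426 against 292 with 0.42, neither past the threshold. Actc1 remained called at all 3 times, with 3917 against 1595 at 24 h and 10434 against 4849 at 48 h, so that at 48 h Actc1 was 2.22-fold higher than in Wild type while Acta1, at 12532 against 13382, was not called. Mybpc2 was called higher at 24 and 48 h, at 1.12 against 0.247 and 5.86 against 2.02 CPM. Within the tables that gave the calls it was 2.99-fold and 2.83-fold higher. The 1 member called lower at each time was Ankrd2.

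From 0 to 24 h, 31 of 44 members rose in Emerin null cells and 0 fell (9.15% and 7.18% of all genes), with a median of 1.34. From 24 to 48 h, 35 rose and 0 fell (5.68% and 8.23%), with a median of 1.47. The first step was smaller than in Wild type for 41 of 44 members, by a median of 0.67 on the log2 scale, and the second for 32, with a median difference of -0.12. The summed log2 change from 0 to 48 h had a median of 2.85 against 3.75 in Wild type. Mybpc1, Tcap and Myot had the largest shortfalls over both steps, with differences of -2.03, -2.02 and -1.89.

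**Figure D4:**
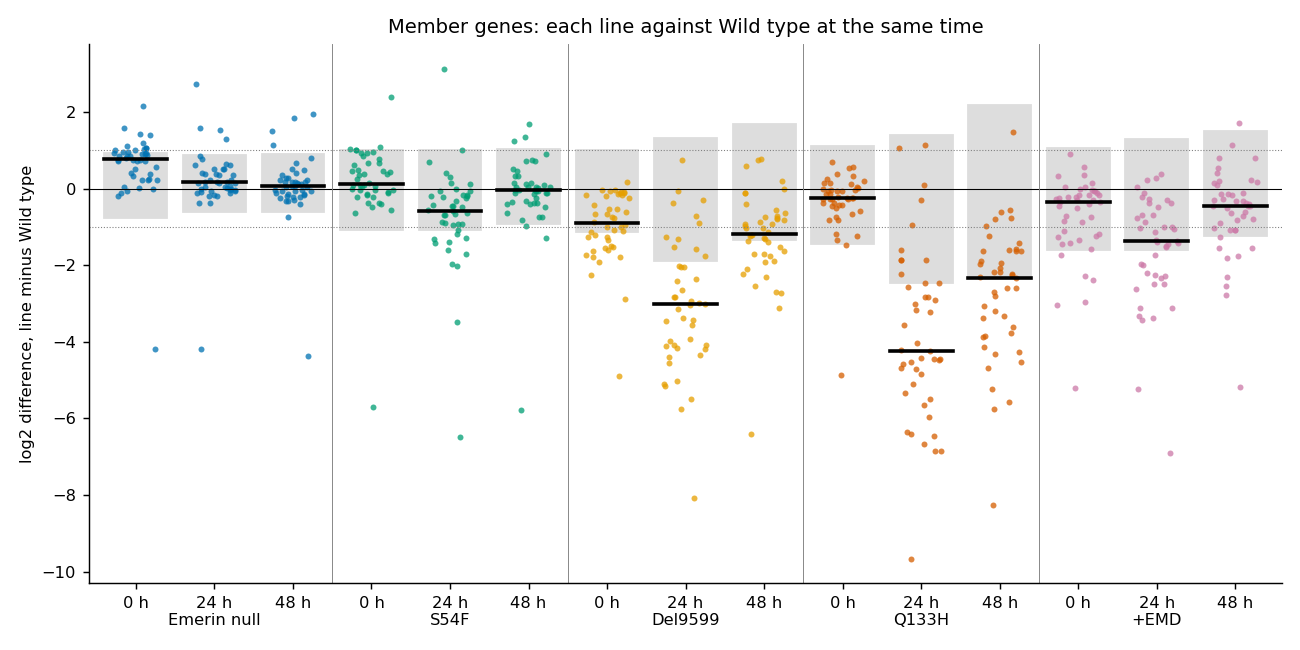
Log2 difference of each member (points) between a line and Wild type at the same time, with the members' median as a black bar, the 5th to 95th percentile of all genes of the table as a grey box, and dotted lines at a log2 of 1 and -1. Medians are 0.78, 0.17 and 0.07 in Emerin null and -0.23, -4.23 and -2.32 in Q133H, and the lowest point of every column is Ankrd2.

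The S54F line stood near Wild type at 0 and 48 h and below it at 24 h. At 0 h, 5 of 44 members were called higher and 1 lower (4.41% and 4.67% of all genes), with a median log2 difference of 0.12. At 24 h, 2 were higher and 11 lower (4.32% and 4.90%), with a median of -0.57, and 37 of 44 had a negative log2 difference. At 48 h, 3 were higher and 2 lower (4.51% and 3.64%), with a median of -0.04. At 0 h the members called higher were Myom3, Myot, Xirp2, Smpx and Trim54. Of the 7 smooth muscle and pericyte markers, 4 were called higher at 0 h, 3 at 24 h and 3 at 48 h, with 1 lower at 24 h. Their part in the values of the members was not tested.

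The 24 h dip in S54F was uneven across the sarcomere. Tcap stood at 1.02 CPM against 12.6 in Wild type (log2 -3.47), Mybpc1 at 14.7 against 60.4, Actn2 at 102 against 393, Csrp3 (muscle LIM protein) at 4.63 against 15.03 and Tmod1 at 30.3 against 89.0. Neb, Myom2, Myot, Myoz1, Hspb7 and Ankrd2 were also called lower. In contrast Actc1, at 3280 against 1595, and Xirp2, at 7.60 against 0.655, were called higher, and Pdlim3, an α-actinin partner, stood at 314 against 188 with a log2 difference of 0.70. Of the 5 members of titin and the M-line only Myom2 was called, with Ttn at 1100 against 1594 (log2 -0.55). At 48 h Actn2 stood at 1336 against 1747 and Mybpc1 at 255 against 336, neither called, while Tcap was still called lower at 29.6 against 74.3. Actc1 stood at 11161 against 4849.

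From 0 to 24 h, 23 of 44 members rose in S54F and 1, Myot, fell (7.19% and 5.49% of all genes), with a median of 1.02. In the second step 39 rose and 1, Tpm3, fell (7.22% and 8.53%), with a median of 2.20. The second step was the larger one for 34 of 44 members, against 18 of 44 in Wild type. Tcap, with log2 changes of -0.79 and 5.06, and Myoz1, with -0.60 and 4.16, had the most unequal pair of steps relative to Wild type.

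Del9599 cells held less sarcomere RNA than Wild type at every time and made nearly all of their rise in the second day. At 0 h, 20 of 44 members were called lower and 0 higher (5.16% and 4.28% of all genes), with a median log2 difference of -0.90. At 24 h, 37 were lower and 0 higher (9.32% and 6.83%), with a median of -3.02. At 48 h, 24 were lower and 0 higher (6.86% and 10.1%), with a median of -1.17. By CPM averaged over tables, the median member stood at 50.9% of its Wild type level at 0 h, 12.8% at 24 h and 50.5% at 48 h. These shares and the medians within 1 table do not match fully: the shares at 0 and 48 h were alike, while the medians were -0.90 and -1.17.

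At 0 h the Z-disc core was already the lowest group in Del9599, with 6 of 10 members called and a median of -1.23. Actn2 stood at 16.1 CPM against 69.3 in Wild type, Ldb3 (cypher, a PDZ-LIM partner of α-actinin) at 19.3 against 65.9 and Tcap at 0.507 against 3.09. Mybpc1, at 0.960 against 8.75, was lowest after Ankrd2. At 24 h Acta1 stood at 328 against 3314, Actc1 at 426 against 1595, Neb at 81.7 against 1360, Ttn at 194 against 1594 and Actn2 at 7.97 against 393, a 54.2-fold difference. The 7 members not called at 24 h were Tpm1, Tpm3, Cryab and the low-count Tmod4, Mybpc2, Myoz3 and Xirp2. Tpm3 stood above Wild type there, at 734 against 399 (log2 0.75). At 48 h Actn2 (227 against 1747, log2 -3.12), Tcap (12.8 against 74.3, -2.71) and Tmod1 (64.4 against 371, -2.69) were still furthest below after Ankrd2. Actc1 at 5139 against 4849, Nrap (a scaffold of early myofibrils) at 251 against 220.2 and Pdlim3 at 554 against 326 were not called. Their log2 differences within the table were -0.10, 0.00 and 0.59.

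From 0 to 24 h, 4 of 43 listed members rose in Del9599 and 4 fell (5.55% and 5.08% of all genes), with a median of 0.13. Pdlim3, Ankrd2, Cryab and Klhl40 rose, and Lmod2, Myom1, Csrp3 and Trim54 fell. From 24 to 48 h, 39 of 43 rose and 0 fell (6.85% and 4.01%), with a median of 3.71, the largest median of the 12 steps. Mybpc1 rose 57.8-fold, Tcap 35.8-fold, Myoz2 33.2-fold, Hspb7 (a small heat shock protein of thin filaments) 31.6-fold, Actn2 30.5-fold and Acta1 24.9-fold in that step. In the first step 40 of 43 members changed less than in Wild type, and in the second 42 of 43 changed more, with medians of -2.01 and 2.02 for the difference. The summed change from 0 to 48 h, with a median of 3.93, was therefore close to that of Wild type (3.75), from lower values at both ends. Among the 7 myogenic markers, 2 were called higher than Wild type at each time and 2 lower at 24 h alone, and their summed level was 1703, 2314 and 5890 CPM against 1843, 4777 and 6266. Pax7 and Myf5, genes of muscle precursors, were the higher ones, at 85.3, 89.6 and 54.4 against 20.5, 7.40 and 2.72 and at 49.1, 85.0 and 60.6 against 11.9, 12.3 and 6.89. Myog, the myogenin gene that opens terminal differentiation, and Chrna1, an acetylcholine receptor subunit, were lower at 24 h, at 595 against 1989 and 457.5 against 1172. In +EMD, 2 of the 7 myogenic markers were likewise called higher than Wild type at each time and 0 lower. In Emerin null 1 was higher at each time, and in S54F 1, 1 and 2, with 0 lower in both lines. Of the 7 smooth muscle and pericyte markers in Del9599, 2 were called higher and 0 lower at 0 h, 1 and 2 at 24 h, and 3 and 1 at 48 h. They summed to 185, 157 and 174 CPM against 206, 267 and 213 in Wild type. In Q133H the counts higher and lower were 2 and 0, 1 and 3, and 2 and 2. In +EMD they were 2 and 0, 1 and 2, and 3 and 1. The part of these markers in the result was not tested.

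Q133H cells were near Wild type at 0 h and far below it after. At 0 h, 5 of 44 members were called lower (Tmod1, Actn3, Tcap, Myoz2 and Ankrd2) and 0 higher (6.49% and 4.85% of all genes), with a median of -0.23. At 24 h, 37 were lower and 2 higher (11.3% and 7.33%), with a median of -4.23. That median uses only the Q133H values set directly against Wild type, while the 7.90% below is averaged over 3 tables. At 48 h, 37 were lower and 1 higher (12.0% and 14.0%), with a median of -2.32. The median member stood at 83.9%, 7.90% and 19.0% of its Wild type level, and at 48 h Q133H was the lowest of the 6 lines for 41 of 44 members. Myogenic markers differed too: the summed level of the 7 was 1651, 1134 and 3179 CPM in Q133H against 1843, 4777 and 6266 in Wild type, Myog was at 286, 192 and 1191, and Pax7 was at 0.18 to 0.46 against 2.7 to 20.5. The markers did not all differ in the same direction: Myf5 was called higher at 24 and 48 h (44.6 against 12.3 and 37.4 against 6.89), and in all 1 marker was higher and 5 lower at 24 h, and 1 higher and 4 lower at 48 h. Their part in the result was not tested.

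The values of Q133H at 24 h depend more on the table than those of any other group. The ratio of the highest to the lowest of its 3 tables had a median of 1.49 over members and reached 3.81 for Mybpc1, while in the other groups except Q133H at 48 h (1.20) the median ran from 1.001 to 1.10. Acta1 at 24 h, for example, stood between 168 and 346 CPM, against 3275 to 3347 in Wild type. These ranges come from the same pooled libraries scaled in different tables and do not show the spread between replicates. In normalized counts, Acta1 was at 3046 in the table against Wild type, 4377 in the first step and 6633 in the second. Actn2 was at 87.1, 157 and 197, while the low-count Tmod4 was at 0.732, 0.592 and 0.658. The 24 h differences from Wild type use the first of these values. The difference from Wild type can be reached directly, or through the earlier time by adding both lines' changes. The routes differed by a median of 0.45 at 24 h and 0.76 at 48 h in Q133H, and by 0.016 to 0.17 in the other 4 lines. Whether single Q133H libraries stand apart was not tested, since the values are pooled.

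**Figure D5:**
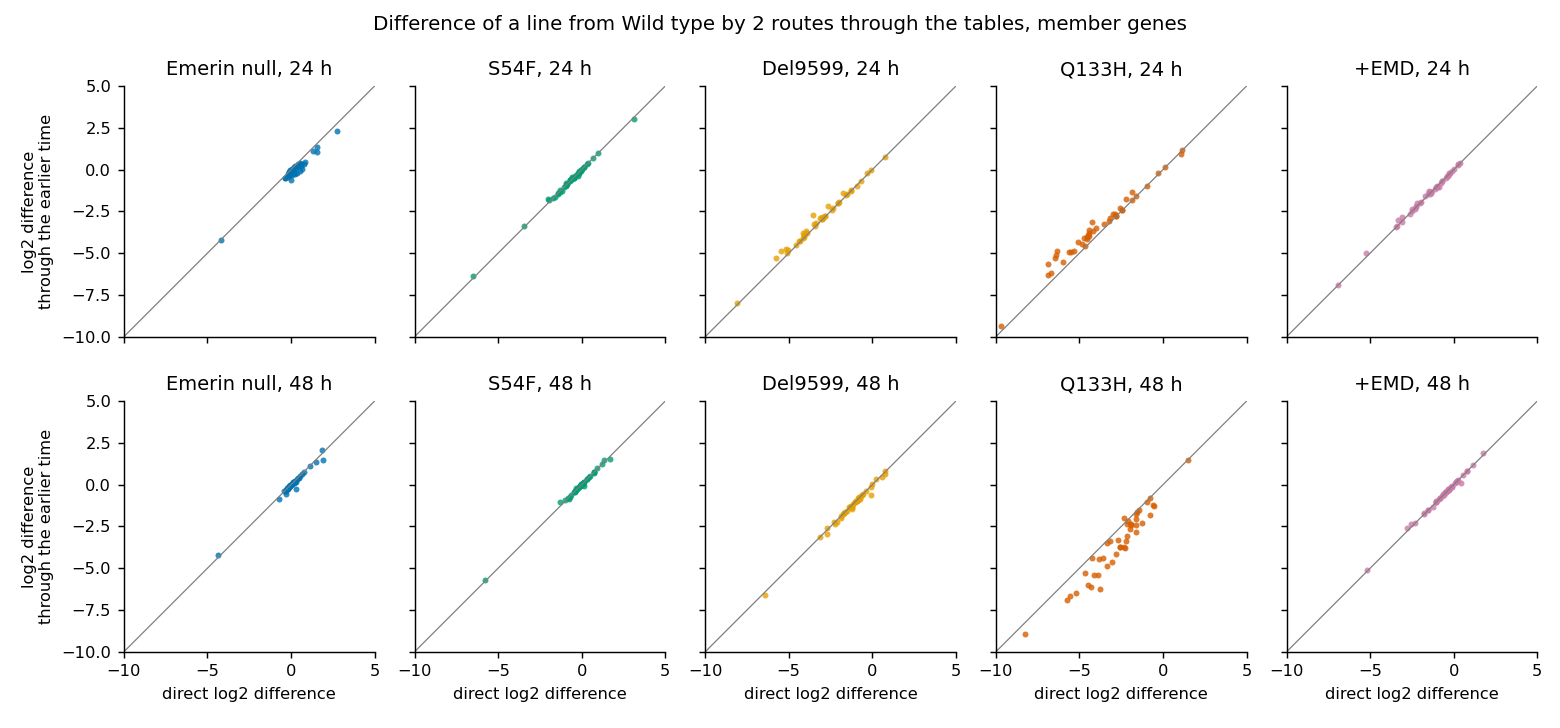
Log2 difference of each line from Wild type for the members at 24 h (top) and 48 h (bottom), taken directly within 1 table (horizontal) and through the earlier time by adding changes from 3 tables (vertical), with the diagonal of equal values. Points lie furthest from the diagonal in Q133H, where the routes differ by a median of 0.45 and 0.76. In Emerin null at 24 h the median is 0.17, and single members there and in Del9599 at 24 h differ by up to 0.61 (Actn2) and 0.86 (Myot).

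In Q133H at 24 h every role but the tropomyosins was far below Wild type. Acta1 stood at 248 CPM against 3314, Actc1 at 135 against 1595, Ttn at 223 against 1594, Mybph at 39.4 against 892 and Unc45b at 2.29 against 152. The lowest values after Ankrd2 were Mybpc1 and Tmod1, at log2 differences of -6.86 each, Unc45b at -6.68 and Actn2 at -6.44. Smaller differences were found for Des (535 against 1489, log2 -1.60), Flnc (455 against 1523, -1.87) and Neb (269.5 against 1360, -2.47). Cryab, at 362 against 646, was not called, and Tpm1 was at 1682 against 1447. Tpm3 was called higher at 24 and 48 h, at 950.4 against 399 and 589.6 against 176, and Xirp2 at 24 h only, at 1.45 against 0.655. At 48 h Acta1 reached 2806 against 13382 and Actc1 829 against 4849, and the members furthest below after Ankrd2 were Tmod1 (6.59 against 371), Tcap (1.51 against 74.3) and Myoz2 (2.31 against 93.2).

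From 0 to 24 h, 23 of 43 members fell in Q133H and 2, Xirp2 and Cryab, rose (4.84% and 4.38% of all genes), with a median of -1.09. These calls rest on the 24 h values of that step, and the second step held other values for the same group. Ttn, at 4877 normalized counts at 0 h, was at 3664 at 24 h in the first step and 5445 in the second. Acta1, at 11372 at 0 h, was at 4377 and 6633, while Lmod2 was at 25.6 and 24.2. No other line had more than 4 members that fell in a step. Myot (-3.33), Csrp3 (-2.68), Mybpc1 (-2.53), Myom1 (-2.51), Lmod2 (-2.50) and Actn2 (-2.40) fell most. From 24 to 48 h, 35 of 44 rose and 0 fell (4.80% and 3.36%), with a median of 2.23. The median over both steps was 0.84, a sum that carries the mismatch of the 24 h values between both steps. Lmod2, at 8.09, 1.19 and 8.81 CPM, ended near where it began, and Myot ended lower (2.84, 0.144 and 0.436). Actn2 stood at 46.7, 7.79 and 83.9, with a summed log2 change of 0.25. Actn3 (22.9, 16.7 and 122) and Pdlim3 (33.0, 32.9 and 253) had summed log2 changes of 2.30 and 2.19, which with Ankrd2 (2.29) were the highest of the line.

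The +EMD line, Emerin null cells given wildtype emerin, did not have the higher 0 h levels of the Emerin null line and reached Wild type only in part. At 0 h, 13 of 44 members were called lower and 0 higher (8.30% and 4.72% of all genes), with a median of -0.35. At 24 h, 27 were lower and 0 higher (8.25% and 6.87%), with a median of -1.37. At 48 h, 12 were lower and 2 higher (5.82% and 8.10%), with a median of -0.45. The median member stood at 74.0%, 39.7% and 75.7% of its Wild type level. No table sets +EMD against Emerin null, so this comparison was made only through their levels.

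After Ankrd2, the largest gaps at 0 and 24 h were those of the Z-disc genes Tcap and Actn2. Tcap stood at 0.258, 0.263 and 13.1 CPM against 3.09, 12.6 and 74.3 in Wild type, with log2 differences of -3.04, -5.23 and -2.54. Actn2 stood at 8.36, 37.0 and 534 against 69.3, 393 and 1747, while Actn3, at 52.9, 256 and 1055 against 62.9, 388 and 957, was not called at any time. Mybpc1 (50.7 against 336 at 48 h) and Tmod1 (77.0 against 371) were also called lower at each time. Smpx, a small muscle protein of the costamere, started at 1.51 against 8.61 and reached 64.5 against 128. Actc1 was higher at 48 h, at 11171 against 4849, and Mybpc2 at 7.17 against 2.02, whereas Acta1, at 10084 against 13382, was not called. Pdlim3, Nrap and Smyd1 (a methyltransferase that acts in myosin folding) stood at 585, 399 and 530.1 against 326, 220.2 and 351, with log2 differences of 0.80, 0.81 and 0.54.

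From 0 to 24 h, 26 of 44 members rose in +EMD and 0 fell (7.87% and 5.26% of all genes), with a median of 1.30. In the second step 40 rose and 1, Tpm3, fell (8.27% and 7.16%), with a median of 2.65. Tcap had log2 changes of -0.06 and 5.50, the latter a 45.3-fold rise, and Csrp3 of -0.78 and 4.42. The second step was the larger for 39 of 44 members, and over both steps the median was 3.94.

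The lines divided the rise differently between both days. The second step was larger than the first for 18 of 44 members in Wild type, 24 of 44 in Emerin null, 34 of 44 in S54F, 41 of 43 in Del9599, 39 of 43 in Q133H and 39 of 44 in +EMD. Relative to the Wild type step, the medians from 0 to 24 h were -0.67 in Emerin null, -0.69 in S54F, -0.74 in +EMD, -2.01 in Del9599 and -3.66 in Q133H. In the second step they were -0.12, 0.58, 1.06, 2.02 and 0.46 in the same order. Summed over both steps the medians were 3.75 in Wild type, 2.85 in Emerin null, 3.47 in S54F, 3.94 in +EMD, 3.93 in Del9599 and 0.84 in Q133H. The Q133H sum is less certain, since its 24 h value was not the same in both steps. Acta1 ended the first at 4377 normalized counts and opened the second at 6633, while Lmod2 had 25.6 and 24.2. Where the second value is higher, the sum falls short of the rise between the end values. The 5 other lines were all set against the same Wild type groups, so these values are not independent of each other.

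Ankrd2 differed from Wild type more than any other member. It was called lower in all 15 comparisons, with log2 differences from -4.19 in Emerin null at 0 h to -9.67 in Q133H at 24 h. Its levels were 9.77, 182 and 585 CPM in Wild type, 0.456, 8.98 and 27.0 in Emerin null, 0.122, 1.89 and 10.2 in S54F, 0.258, 0.653 and 7.38 in Del9599, 0.246, 0.199 and 2.03 in Q133H, and 0.199, 1.46 and 16.5 in +EMD. At 48 h the highest of the other lines thus stood below the Wild type level at 24 h. The relative rise was 65.0-fold from 0 to 48 h in Wild type, 62.5-fold in Emerin null, 71.3-fold in S54F and 70.4-fold in +EMD, against 21.1-fold in Del9599 and 4.89-fold in Q133H. Values under 1 CPM rest on few reads, and their fold depends on the pseudocount. For Q133H the 24 h value of Ankrd2 also differed between both steps, at 2.88 and 4.96 normalized counts. Ankrd2 was thus lower in every line of Emerin null origin, +EMD included. Its close relative Ankrd1, which is not a member, stood at 944, 608 and 408 CPM in Wild type and between 206 and 861 in the other lines.

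Tpm3 was called lower in 2 of the 12 steps and higher in none. It stood at 673, 389 and 187 CPM in Emerin null, 597, 449 and 175 in S54F, 600.1, 514 and 209.7 in +EMD, 731, 734 and 344 in Del9599 and 762, 950.4 and 589.6 in Q133H. By the summed changes, its 0 h value exceeded its 48 h value 3.72-fold in Wild type, 1.95-fold in Del9599 and 1.26-fold in Q133H. At 48 h Q133H was the highest of the 6 lines for Tpm3 and the lowest for Acta1. Tpm1 lay between 1164 and 2239 CPM in all 18 groups and was called in none of the 27 comparisons, though its summed log2 change reached 0.86 in Wild type and 0.94 in +EMD.

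Cryab, a chaperone of desmin and actin, rose from 0 to 24 h in all 6 lines, by log2 1.77 in Wild type, 1.58 in Emerin null, 1.70 in S54F, 1.70 in +EMD, 1.32 in Del9599 and 1.21 in Q133H. It was the only member that rose in the first step in every line, and it was called against Wild type in none of the 15 comparisons. Its transcript overlaps that of Hspb2 by 252 bases. Xirp2 divided the lines differently: at 48 h it stood at 21.9 and 22.1 CPM in Emerin null and S54F, 11.4 in Del9599, 6.04 in Wild type, 1.98 in +EMD and 1.53 in Q133H. Actc1 was likewise above Wild type at 48 h in Emerin null, S54F and +EMD (10434, 11161 and 11171 against 4849), near it in Del9599 (5139) and below in Q133H (829).

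The other scaffold and chaperone members had values between those extremes. Synpo2l (an actin-binding scaffold of the Z-disc) stood at 124, 568 and 1017 CPM in Wild type, at 212, 571 and 945 in Emerin null and at 113, 71.9 and 302 in Q133H. Xirp1, the xin gene, stood at 56.5, 242 and 406 in Wild type, at 27.5, 32.4 and 271 in Del9599 and at 75.5, 47.5 and 145 in Q133H. At 24 h both were called lower than Wild type in Del9599, Q133H and +EMD, and neither was called in Emerin null or S54F.

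Klhl41, a ligase adaptor that stabilizes nebulin, was higher than Wild type at 0 h in Emerin null, at 52.3 against 21.9 CPM, and was not called in +EMD at any time (23.9, 121 and 352 against 21.9, 132.9 and 372). Klhl40 differed from it in that line, at 3.77 against 12.6 at 0 h, which was called lower. With Ankrd2, Klhl40 rose in 11 of the 12 steps, the most of any member. Trim54 (MuRF3, a microtubule-associated ligase) stood at 4.20, 0.810 and 4.50 in Q133H against 6.88, 20.0 and 53.8 in Wild type. Hspb7 stood at 3.67, 0.738 and 10.00 in Q133H against 5.54, 25.4 and 176 in Wild type, and at 14.0, 36.6 and 192 in Emerin null.

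A wider list of sarcomere genes outside the members was set beside them. Of 35 further genes, 34 were listed in some table (Myoz4 was not). In Wild type 33 were listed, of which 19 rose and 3 fell from 0 to 24 h (9.61% and 7.93% of all genes), with a median of 1.24. From 24 to 48 h, 15 rose and 0 fell (6.14% and 9.12%), with a median of 0.86. Against Wild type at 24 h, 0 were higher and 21 lower in Q133H (median -2.13), 0 and 22 in Del9599 (-1.74), 0 and 15 in +EMD (-1.01), 1 and 8 in S54F (-0.32) and 0 and 0 in Emerin null (0.05). The shares of all genes were 7.33% and 11.3% in Q133H, 6.83% and 9.32% in Del9599, and 6.87% and 8.25% in +EMD. In S54F they were 4.32% and 4.90%, and in Emerin null 3.49% and 2.12%. Capn3 (a titin-bound protease) stood at 134 CPM in Wild type at 48 h and at 6.70 in Q133H.

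Nonmuscle and smooth muscle relatives of the members differed in direction. Of 16 such genes, 0 rose and 4 fell from 0 to 24 h in Wild type (median -0.80, against 9.61% and 7.93% of all genes). From 24 to 48 h, 0 rose and 9 fell (median -1.13, against 6.14% and 9.12%). In Q133H the corresponding counts were 0 and 3 (median -0.26, 4.38% and 4.84% of all genes) and 0 and 1 (median -0.14, 4.80% and 3.36%). At 48 h 9 of the 16 were higher and 3 lower in Q133H than in Wild type (14.0% and 12.0% of all genes), with a median of 1.14. In Del9599 7 were higher and 0 lower (10.1% and 6.86%), with a median of 0.84. Emerin null and S54F each had 1 higher and 0 lower, and +EMD 2 and 0, with medians of 0.51, 0.50 and 0.38. In these lines the shares of all genes were 3.58% and 2.14%, 4.51% and 3.64%, and 8.10% and 5.82%. Actb (cytoplasmic β-actin) went from 5056 to 1766 and 649 CPM in Wild type, and stood at 3506, 2562 and 1858 in Q133H. Flna, the widely expressed filamin, stood at 2407, 1306 and 275 in Wild type and at 2253, 1638 and 1252 in Q133H. Acta2, the smooth muscle α-actin that myoblasts also express, was an exception in the list, with 2051, 3244 and 4824 CPM in Wild type and 1257, 829 and 1653 in Q133H.

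Some members share sequence or position with another annotated gene, so their counts could hold reads of it. In addition to Tpm3, Tmod1 and Cryab, they are Des with Gm15179 (222 bases), Klhl40 with Gm47108 (456), Mybpc1 with Gm48752 (252), Nrap with Habp2 (262) and Unc45b with Unc45bos (257), each at an identity of 100%. The sources used here do not say whether counting used strand, so members and antisense partners cannot be told apart.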

How the data were processed

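Poly-A RNA of 54 samples was sequenced by the authors as paired reads of 100 bases, filtered with SOAPnuke and aligned with HISAT2 to mm10. Versions, and whether counting used strand, are not given in the sources used here. Each of the 27 deposited tables compares 2 groups (6 libraries) under the authors' count model. Only the 2 expression columns were used here: a signal in normalized counts that the authors scaled within a table and pooled per group. Each pair appears to average to a mean over the libraries, with a split between groups set by the authors' model. Many low genes share 1 pair of values, and no value is 0. This reading was not checked against single libraries. Folds of low genes thus appear moderated, and levels from different tables are not identical. The design had assumed plain group means. Transcript length was copied from the tables. The tables' own fold changes, p-values and directions were not used. No column of per-sample values was left unmapped (0 of them), and no test was run, since the expression columns hold no replicates.

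The log2 ratio was taken within a table with a pseudocount of 1 normalized count. A gene was called at 2-fold or more with a higher value of at least 10. Levels were scaled to 1000000 per column and averaged over 2 to 7 tables. A change from 0 to 48 h is the sum of both steps. Every line was compared with the same Wild type groups. All 44 members were counted, and those given with values are, by role, the most abundant and the most and least changed. Members and lists were chosen with earlier results of these data known. Gene positions, promoters and transcripts came from RefSeq and the annotation of GRCm38.p6. Copies were found with minimap2 2.31-r1302 (at least 200 bases at 97% identity or more), other steps used Python 3.11.15, numpy 2.4.6, pandas 2.3.3 and matplotlib 3.10.9.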

Additional observations from a re-analysis of the deposited data

How the results depend on the processing

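The count of members called in each of the 27 comparisons was recomputed under 6 alternatives, and no called member changed direction under any of them. All 27 counts stayed within 1.5 times their value without a pseudocount, without a minimum, with a minimum of 50, with both columns rescaled to the same sum, and with the median log2 ratio set to 0. Of 1185 member values, 637 were called. The same-sum scaling moved the median of all genes by between -0.18 and 0.17 on the log2 scale, ended 26 calls and added 4. The minimum of 50 ended 37 calls. A 3-fold threshold ended 197 calls and moved 18 counts. Over time it left 0 members in Del9599 from 0 to 24 h, 13 in Q133H, 14 in +EMD and 16 in Emerin null, and from 24 to 48 h 18 in Emerin null and 21 in Wild type. Against Wild type at 0 h it left 1 in Q133H, 2 in Emerin null, 2 in S54F, 6 in +EMD and 9 in Del9599. At 24 h it left 2 in Emerin null, 7 in S54F and 17 in +EMD, and at 48 h 2 in S54F, 3 in Emerin null, 6 in +EMD and 13 in Del9599. These losses follow from the stricter threshold itself. The share of all genes past 3-fold was not counted, so the counts left cannot be set against it.

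No paired analysis was possible because the columns hold 1 pooled value per group and carry no replicate number, and for the same reason no replicate could be left out in turn. Members under 10 normalized counts in both groups, such as Myoz3, could not be called at this depth. Without a pseudocount, single members moved by up to 1.43 on the log2 scale.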
